A study of Mus musculus with 12 samples.

Results

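The BCL2 family decides whether a cell keeps its mitochondria intact. The 10 genes described here are *Bcl2*, *Bcl2l1* (BCL-XL), *Bcl2l2* (BCL-W) and *Mcl1*, which encode proteins that hold death back, *Bax*, *Bak1* and *Bok*, which encode the effectors that open the outer mitochondrial membrane, and *Bcl2l11* (BIM), *Bad* and *Bid*, which encode BH3-only proteins that carry death signals to the other members. They were taken by gene symbol, and no measured value enters that rule. They make up 10 of the 54146 genes in the deposited tables. Survival proteins bind and block effectors and BH3-only proteins, so that cell death depends on the balance between the classes. In embryonic stem cells MCL1 is known as a short-lived protein with a prominent part in survival, and BAX and BAK can replace each other in many settings. Much of the control over the family acts on the proteins (phosphorylation, cleavage, degradation), which RNA levels do not show.

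RNA-seq was performed on C57BL/6 mouse embryonic stem cells (mESCs) labelled Prdm10F/F; Rosa26-CreERT2 (Prdm10del/del; Rosa26-CreERT2 in the OHT groups), in which Cre fused to a modified oestrogen receptor is made from the widely active *Rosa26* locus and removes the floxed exon 5 of *Prdm10* once 4-hydroxytamoxifen (OHT) is added. All 4 groups were grown on gelatin in serum and LIF, and were exposed for 24 h either to 50 nM OHT or to an equal volume of the solvent ethanol (EtOH), then harvested at Day 2 or Day 4, with 3 libraries per group. The controls carry the same floxed alleles and the same Cre, and no group of cells with Cre but without floxed alleles was analysed here, so that loss of PRDM10 and the action of OHT and Cre cannot be told apart. The labels do not say whether the 3 libraries of a group came from separate cultures, so that p-values measure the spread between these libraries, which may be technical.

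The 12 libraries held 35017667 to 41409992 expected counts (RSEM's estimate of the read pairs from each gene). Counts over the whole of *Prdm10* were higher in the libraries labelled OHT, by 1.44 on the log2 scale at Day 2 and 1.21 at Day 4. A count over the whole gene does not test the removal of exon 5, so this rise neither bears out nor contradicts the label. The study reports checks of the recombination in DNA, transcript and protein, which were not repeated here. The groups are called libraries labelled OHT or EtOH. The 8 ES cell markers summed to 2365 to 2850 TPM (a transcript level scaled for length and library size) in every library, whereas 6 markers of primitive endoderm summed to 1.82 to 2.74 TPM. The 6 markers of fibroblast feeder cells summed to 2.28 to 3.17 TPM at Day 2, and at Day 4 to 2.21 to 3.06 TPM in the EtOH libraries and 0.85 to 1.36 TPM in the libraries labelled OHT, without overlap. *Thy1* carried that difference (1.94 to 2.66 against 0.59 to 1.11 TPM), and the other 5, collagen genes included, were at 0.27 TPM or below in every library. At Day 4, 6 of the 8 ES cell markers were called higher in the libraries labelled OHT and none lower, beside 23.5% and 21.7% of all genes, and at Day 2, 1 was called higher and 3 lower, beside 9.17% and 10.6%. The part of these shifts in the values of the BCL2 family genes was not tested.

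Per unit of transcript length, the family in these cells was led by 1 effector and 1 survival gene. *Bax* stood at 108 to 125 TPM over the 12 libraries and *Mcl1* at 84.7 to 99.9 TPM, and the ranges of the pair did not meet in any group. *Bid*, whose protein links death receptors to mitochondria once a caspase has cut it, came next at 20.4 to 23.3 TPM. *Bok* (10.2 to 16.8 TPM) and *Bak1* (11.7 to 15.7 TPM) followed. Their order was not the same in all groups. *Bok* lay above *Bak1* in the EtOH libraries of Day 2 and below it in the libraries labelled OHT of Day 4. These 2 groups differ in both day and label, and in the other 2 groups the libraries of the pair overlapped.

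The 4 remaining genes above 1 TPM lay close together. *Bcl2l1* ranged from 5.92 to 10.7 TPM, *Bcl2l11* from 5.67 to 9.41 TPM, *Bad* from 4.92 to 7.53 TPM and *Bcl2l2* from 3.96 to 5.48 TPM. *Bcl2l11* could not be separated from *Bcl2l1* in the EtOH libraries of Day 2, nor from *Bad* in those of Day 4. The gene that gave the family its name was the lowest of the 10 in every library: *Bcl2* reached 0.08 to 0.33 TPM.

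**Figure D1:**
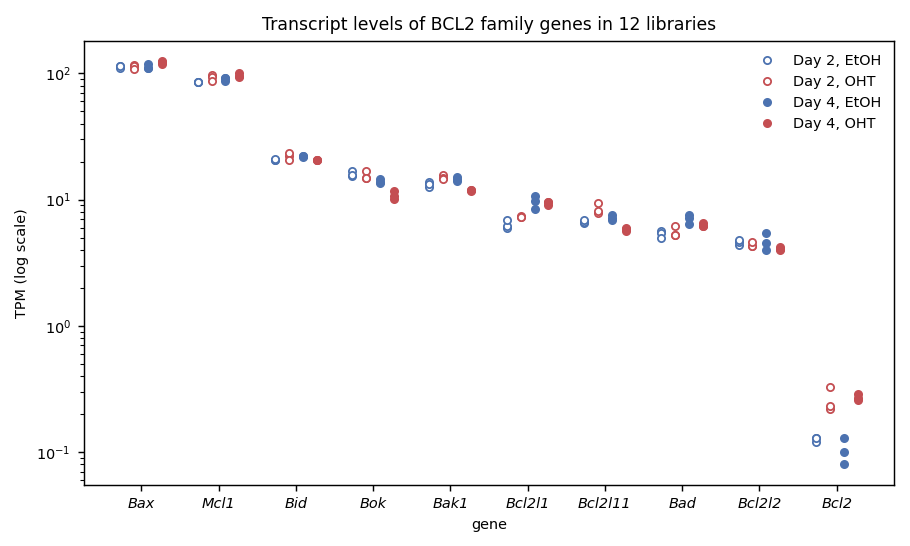
Level of each gene in TPM (log axis) in each of the 12 libraries. Each point is 1 library, blue for EtOH and red for OHT, open for Day 2 and filled for Day 4. *Bax* (108 to 125 TPM) and *Mcl1* (84.7 to 99.9 TPM) lie above all others and *Bcl2* (0.08 to 0.33 TPM) below them.

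*Mcl1* made up 85.0% to 89.1% of the summed TPM of the 4 survival genes, and *Bax* 78.1% to 85.1% of that of the 3 effectors. The share of *Bax* was 79.0% to 81.0% in the EtOH libraries of Day 4 and 83.7% to 85.1% in the libraries labelled OHT of that day, without overlap. The ratio of summed survival to summed effector TPM was 0.669 to 0.680 in the EtOH libraries and 0.725 to 0.731 in the libraries labelled OHT at Day 2. At Day 4 the same ratio was 0.717 to 0.758 and 0.729 to 0.780, which overlapped. The EtOH libraries of the 2 days did not overlap in this ratio either, and no member was called between labels at Day 2 in the tests below. These ratios are taken within a library and describe RNA only.

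The first comparison asked which of these genes had moved at Day 2. A gene was called where its adjusted p was below 0.05 and its mean normalised count above 100, and 9 of the 10 genes passed that minimum, all but *Bcl2*. By DESeq2, 0 of the 9 were called, against 19.8% of all 11644 genes tested (9.17% higher, 10.6% lower), and the quasi-likelihood test of edgeR called 0 as well. At an unadjusted p below 0.05 there were 2, *Bcl2l2* and *Bax*, against 32.6% of all genes. Libraries did not overlap for 3 of the 9 (*Bcl2l2*, *Bax* and *Bok*, all lower), against 45.6% of all genes tested, of which 26.9% were lower. The median log2 fold change of the 9 was 0.01, beside -0.03 over all genes tested, and the median of the absolute log2 fold change was 0.07, beside 0.10.

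The 95% intervals of the folds show how large a Day 2 difference these libraries leave room for. They ran from 0.977 to 1.08 for *Mcl1*, from 0.931 to 1.09 for *Bid* and from 0.892 to 1.07 for *Bak1*. The less abundant *Bad* was bounded more loosely, from 0.837 to 1.23, and *Bcl2l11* from 0.982 to 1.21. The intervals of *Bcl2l2* (0.786 to 0.993) and *Bax* (0.879 to 0.996) lay below 1, although neither gene was called. Those of the other members above the minimum included 1.

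At Day 4, 5 of the 9 genes were called, 2 higher and 3 lower, against 45.1% of all 11555 genes tested (23.5% higher, 21.7% lower), and edgeR called the same 5. The share was thus near that of all genes. *Mcl1*, the most abundant survival gene, and *Bax*, the most abundant effector gene, were higher in the libraries labelled OHT. *Bok*, *Bak1* and *Bcl2l11* were lower. Their folds lay between 0.781 and 1.10. The same 5 genes had libraries that did not overlap, against 62.9% of all genes tested (33.5% higher, 29.5% lower). The median log2 fold change of the 9 was -0.05, beside 0.01 over all genes tested, and the absolute values had a median of 0.12, beside 0.15. In bulk RNA, fewer cells of a type and less RNA per cell cannot be told apart.

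**Figure D2:**
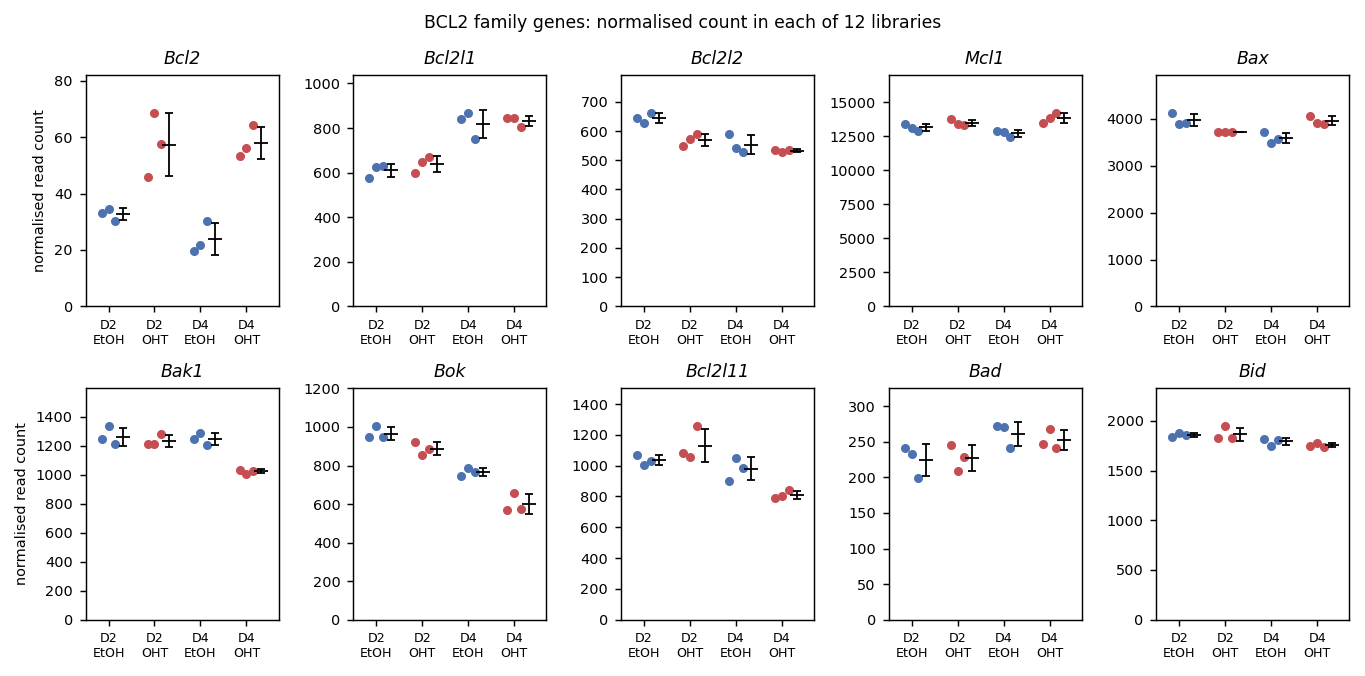
Normalised read count (linear axis from 0) of each of the 10 genes in each of the 12 libraries. Points are libraries, blue for EtOH and red for OHT, and the black mark beside them is the mean with its SD (n = 3). *Bak1*, *Bok* and *Bcl2l11* are lower in the libraries labelled OHT of Day 4, and *Bcl2* is higher in those of both days.

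Among the survival genes, *Mcl1* (ENSMUSG00000038612.16, GRCm38, chr3:95658788-95663176, plus strand) had the highest counts of the family. At Day 4 its normalised counts were 12904, 12865 and 12451 in the EtOH libraries and 13512, 13829 and 14214 in the libraries labelled OHT. All 3 of the latter lay above all 3 of the former, but the step was small, 1.09-fold (log2 fold change 0.12, SE 0.03, adjusted p = 0.000818 by DESeq2). At Day 2 the counts of the groups overlapped (12915 to 13425 and 13344 to 13770) with a log2 fold change of 0.04 (SE 0.04).

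*Bcl2* (ENSMUSG00000057329.7, chr1:106538178-106714274, minus strand) was the gene with the largest fold change of the family and the fewest reads. Its expected counts at Day 2 were 35, 36 and 28 in the EtOH libraries and 46, 73 and 53 in the libraries labelled OHT, and at Day 4 they were 19, 22 and 30 against 54, 57 and 69. The groups did not overlap on either day. Among genes above the minimum mean, libraries did not overlap for 45.6% at Day 2 and 62.9% at Day 4, in either direction. The share among genes with counts as low as those of *Bcl2* is not given here. The fold was 1.75 at Day 2 (log2 fold change 0.81, SE 0.30, adjusted p = 0.0476 by DESeq2) and 2.42 at Day 4 (1.28, SE 0.32, adjusted p = 0.000476), with 95% intervals of 1.16 to 2.65 and 1.56 to 3.76.

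With a mean of about 43.0 normalised counts *Bcl2* lies below the minimum and is not among the called genes. Shares were taken over genes with means of 10 to 100 that got an adjusted p, 3622 at Day 2 and 5114 at Day 4. Of these, 4.0% passed the adjusted threshold and were higher at Day 2, and 4.13% at Day 4. The Day 4 value passed under all 14 alternative settings (log2 fold change 1.15 to 1.48), whereas that of Day 2 was lost in 6 of the 12 that gave an adjusted p. The levels stayed at the bottom of the family throughout: 0.13, 0.12 and 0.13 TPM in the EtOH libraries of Day 2, and 0.26, 0.27 and 0.29 TPM in the libraries labelled OHT of Day 4.

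*Bcl2l1* (ENSMUSG00000007659.18, chr2:152780668-152831728, minus strand) differed by day rather than by label. Its normalised counts were 577, 625 and 630 in the EtOH libraries and 600, 648 and 670 in the libraries labelled OHT at Day 2. At Day 4 they were 840, 867 and 749 against 844, 843 and 806. The log2 fold change between labels was 0.07 (SE 0.09) at Day 2 and 0.02 (SE 0.08) at Day 4, with a 95% interval of the Day 4 fold from 0.913 to 1.13.

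*Bcl2l2* (ENSMUSG00000089682.10, chr14:54883377-54888234, plus strand) had normalised counts of 644, 629 and 661 in the EtOH libraries and 549, 572 and 588 in the libraries labelled OHT at Day 2. The groups did not overlap, but the log2 fold change of -0.18 (SE 0.09) had an adjusted p of 0.151 by DESeq2. At Day 4 the counts were 591, 542 and 527 against 535, 527 and 536, with a log2 fold change of -0.06 (SE 0.09). The gene overlaps *Gm20521* on the same strand, and RSEM, which divides shared reads by estimate, gave that gene 5.54 to 58.4 expected counts per library, with a posterior SD of the *Bcl2l2* count of up to 7.1, the highest among the members.

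All 3 effectors were called at Day 4, in opposite directions. *Bax* (ENSMUSG00000003873.11, chr7:45461697-45466898, minus strand) had normalised counts of 3712, 3483 and 3579 in the EtOH libraries and 4071, 3908 and 3897 in the libraries labelled OHT. The 1.10-fold higher level (log2 fold change 0.14, SE 0.04, adjusted p = 0.00427 by DESeq2) was no longer called without the EtOH replicate 2 (adjusted p = 0.0609) or without the OHT replicate 1 (0.0716). At Day 2 the libraries lay the other way round, with 4122, 3892 and 3918 in EtOH above 3713, 3724 and 3724 under the OHT label (log2 fold change -0.10, SE 0.05, adjusted p = 0.146). *Bax* overlaps *Gm45808* on the same strand, which was given 0 to 31.8 expected counts.

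*Bak1* (ENSMUSG00000057789.13, chr17:27019810-27029009, minus strand), whose protein sits in the outer mitochondrial membrane, fell. Its normalised counts at Day 4 were 1243, 1284 and 1202 in the EtOH libraries and 1032, 1007 and 1029 in the libraries labelled OHT. The gap between the groups was wider than the spread within either, and the fold was 0.821 (log2 fold change -0.28, SE 0.06, adjusted p = 4.75e-05 by DESeq2). At Day 2 the groups overlapped (1212 to 1332 and 1208 to 1283).

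*Bak1* shares its position with *Ggnbp1* on the opposite strand, and that gene was higher at Day 4 (log2 fold change 0.35, SE 0.10, adjusted p = 0.0039). The libraries were stranded, and whether the counting used the strand is not given in the sources used here. RSEM gave the count of *Bak1* a posterior SD of 0 in every library, so that no read pair was shared by estimate with another gene. The length of *Bak1* transcripts also differed at Day 2. Its effective length, RSEM's mean length over the transcripts found, was 2023, 2038 and 1945 bases in the EtOH libraries and 1761, 1843 and 1873 bases in the libraries labelled OHT, without overlap, which holds for 6.91% of all genes in that direction.

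On the TPM scale, which divides by that length, *Bak1* at Day 2 was higher in the libraries labelled OHT (14.7 to 15.7 against 12.7 to 13.7 TPM) while its counts overlapped. *Bcl2l11* showed the same at Day 2, with 2859 to 3165 bases against 3182 to 3401 in EtOH, and 7.82 to 9.41 against 6.50 to 6.93 TPM. TPM values as a whole leaned upwards on that day, with 27.5% of all genes higher without overlap and 7.28% lower, and *Mcl1*, *Bcl2l1* and *Bcl2* were also higher without overlap, with effective lengths that overlapped, so TPM is not used here for fold changes.

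*Bok* (ENSMUSG00000026278.14, chr1:93685660-93695764, plus strand), which encodes an effector that is kept low by degradation and acts less dependently on the survival proteins, changed the most of the called members. Its normalised counts at Day 4 were 746, 789 and 765 in the EtOH libraries and 570, 658 and 572 in the libraries labelled OHT. The fold was 0.781 (log2 fold change -0.36, SE 0.08, adjusted p = 0.000132 by DESeq2). At Day 2 it was 947, 1003 and 948 against 922, 855 and 886, again without overlap, with a log2 fold change of -0.12 (SE 0.07, adjusted p = 0.291).

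Of the 3 BH3-only genes, *Bcl2l11* (ENSMUSG00000027381.16, chr2:128126038-128162547, plus strand) was called. BIM, its product, can bind every survival protein and activates the effectors. Its normalised counts at Day 4 were 903, 1050 and 985 in the EtOH libraries and 792, 801 and 842 in the libraries labelled OHT. The fold was 0.827 (log2 fold change -0.27, SE 0.08, adjusted p = 0.00137 by DESeq2). At Day 2 the groups overlapped, with 1072, 1004 and 1033 against 1083, 1054 and 1255, and a log2 fold change of 0.13 (SE 0.08).

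*Bid* (ENSMUSG00000004446.12, chr6:120891930-120916853, minus strand) was the steadiest member. Its normalised counts lay between 1735 and 1943 in all 12 libraries, and the 95% interval of the fold at Day 4 was 0.910 to 1.05. *Bad* (ENSMUSG00000024959.13, chr19:6941861-6951899, plus strand), a BH3-only gene whose protein is held inactive by growth factor signalling through phosphorylation, ranged from 199 to 271 normalised counts, with an interval at Day 4 of 0.811 to 1.14. RSEM gave both genes a longer effective length in the libraries labelled OHT at Day 4, by 2.96% for *Bid* and 5.06% for *Bad*, without overlap, which holds for 9.66% of all genes in that direction.

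**Figure D3:**
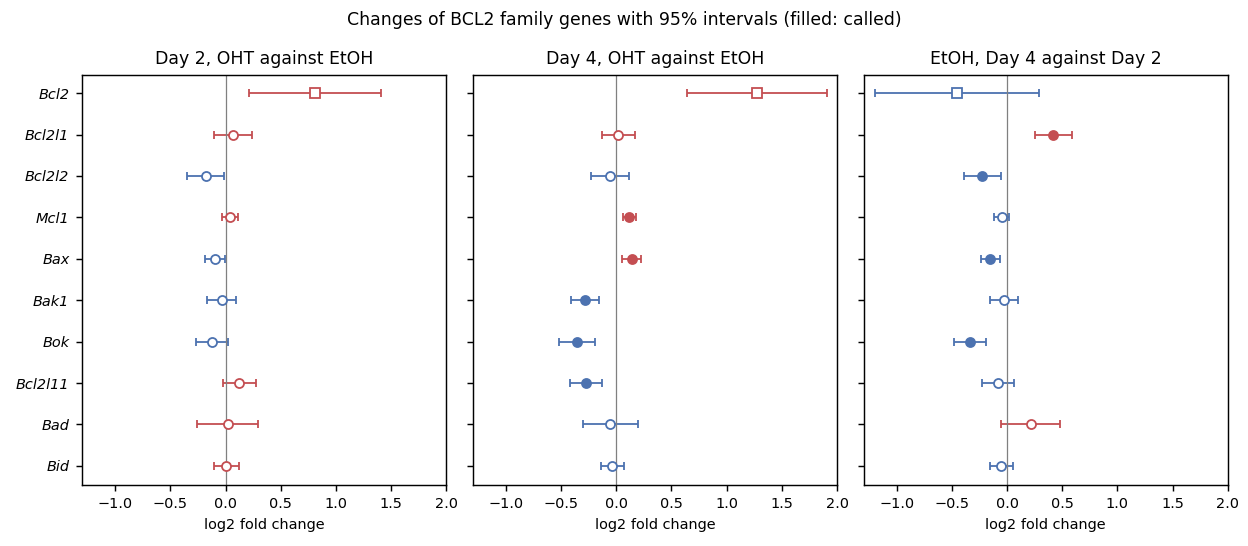
Log2 fold change of each gene in 3 comparisons, with 95% intervals. Filled symbols are called, red is above 0 and blue below, and the square marks *Bcl2*, which is below the minimum mean. None is filled at Day 2, and at Day 4 *Mcl1* and *Bax* lie above 0 and *Bak1*, *Bok* and *Bcl2l11* below.

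Whether the OHT effect itself changed from Day 2 to Day 4 was tested by an interaction term over the 12 libraries. Of the 9 genes, 3 were called, 1 with a more positive and 2 with a more negative OHT effect at Day 4, against 32.3% of all genes tested (18.7% positive, 13.6% negative). *Bax* went from lower to higher, a difference of 0.24 (SE 0.05, adjusted p = 0.000136 by DESeq2). *Bcl2l11* went the other way, by -0.40 (SE 0.11, adjusted p = 0.00158).

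For *Bak1* the difference was -0.25 (SE 0.08, adjusted p = 0.0112), and it was no longer called when the EtOH replicate 3 or the OHT replicate 3 of Day 2, or the EtOH replicate 2 of Day 4, was left out. *Bok*, with negative values on both days, did not pass by DESeq2 (-0.23, SE 0.10, adjusted p = 0.0704) but passed in 4 of 19 alternative settings, edgeR among them, which called 4 members. The values did not pass for *Mcl1* (0.08, SE 0.04, adjusted p = 0.14) or *Bcl2* (0.47, SE 0.39, adjusted p = 0.442).

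The EtOH libraries alone were compared between the days. Here 4 of the 9 genes were called, 1 higher and 3 lower at Day 4, against 41.1% of all genes (20.6% higher, 20.5% lower). *Bcl2l1* rose 1.34-fold (log2 fold change 0.42, SE 0.09, adjusted p = 8.8e-06 by DESeq2). *Bok* fell to 0.792 of its Day 2 level (-0.34, SE 0.07, adjusted p = 4.56e-05). The lower level of *Bax* (-0.15, SE 0.05, adjusted p = 0.00429) was no longer called without the Day 2 EtOH replicate 1 or the Day 4 EtOH replicate 2. That of *Bcl2l2* (-0.22, SE 0.09, adjusted p = 0.0372) was no longer called without any 1 of these libraries except the Day 4 EtOH replicate 1, and was -0.11 with effective length offsets. These EtOH libraries are the controls of the OHT comparisons too, so the 2 sets of values are not independent.

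The study's list of genes bound by PRDM10 was set beside the family. None of the 10 members is in it, and of the 47 other death pathway genes examined 3 are, *Aifm1*, *Trp53* and *Usp9x*. The share of all genes that are in the list was not computed, so these counts do not set the family apart from other genes.

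The wider BCL2 family was described from a list of 15 genes, 8 of which passed the minimum at Day 2 and 9 at Day 4. At Day 2, 2 were called, both lower, and at Day 4, 2 were higher and 2 lower. Over all genes tested, 9.17% were called higher and 10.6% lower at Day 2, and 23.5% and 21.7% at Day 4. The medians of the list were -0.10 and -0.01 on the log2 scale, beside -0.03 and 0.01 over all genes tested. *Pmaip1* (NOXA), a BH3-only gene whose protein targets MCL1, was lower at Day 2 (log2 fold change -0.18, SE 0.05, adjusted p = 0.00319 by DESeq2) and higher at Day 4 (0.17, SE 0.05, adjusted p = 0.00423). The Day 2 call of *Pmaip1* was lost in 1 of 14 alternative settings and its Day 4 call in 2 of 14. *Bmf*, another BH3-only gene, was higher at Day 4 (0.31, SE 0.08, adjusted p = 0.000595).

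*Bnip3*, a mitophagy receptor induced in low oxygen, was lower at Day 2 (-0.29, SE 0.05, adjusted p = 4.57e-07). It differed far more between the days in EtOH than between labels, by -2.51 on the log2 scale. *Bcl2l13* (-0.17, SE 0.05, adjusted p = 0.00346) and *Bcl2l14* (-0.28, SE 0.11, adjusted p = 0.0409) were lower at Day 4, of which *Bcl2l13* overlaps *Bid* on the opposite strand.

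Downstream of mitochondria, 15 genes of the apoptosome, the caspases and their inhibitors all passed the minimum. At Day 2, 0 were called higher and 2 lower, and at Day 4, 2 higher and 4 lower. Of all genes tested, 19.8% were called at Day 2 and 45.1% at Day 4. The medians of the list were -0.04 and 0.09, beside -0.03 and 0.01 over all genes tested. *Dffa*, the inhibitor of the nuclease that cuts DNA in dying cells, was lower at Day 4 (-0.42, SE 0.09, adjusted p = 5.34e-05 by DESeq2), and so was *Cycs*, cytochrome c (-0.23, SE 0.04, adjusted p = 2.43e-06).

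In the same list, *Apaf1*, the scaffold of the apoptosome (0.21, SE 0.05, adjusted p = 0.000414), and *Birc2*, a ubiquitin ligase that restrains death receptor signalling (0.27, SE 0.05, adjusted p = 2.26e-07), were higher at Day 4. *Aifm1*, a mitochondrial oxidoreductase, was lower on both days (-0.21 on each), as was *Birc5*, a gene of dividing cells known as survivin (-0.15 at Day 2, -0.10 at Day 4), although the *Birc5* call was lost in 6 of 14 alternative settings on each day.

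Of the 7 genes of the death receptor arm, 6 passed the minimum at Day 2 and 5 at Day 4. None was called at Day 2 by DESeq2, against 19.8% of all genes tested, and 3 were called at Day 4, against 45.1%. On the log2 scale the list had medians of 0.16 at Day 2 and 0.04 at Day 4, beside -0.03 and 0.01 over all genes tested. At Day 4, *Casp8*, its initiator caspase (0.47, SE 0.17, adjusted p = 0.0213 by DESeq2), and *Cflar*, the inhibitor of that caspase (0.26, SE 0.10, adjusted p = 0.0282), were higher and the kinase gene *Ripk1* was lower (-0.22, SE 0.08, adjusted p = 0.0225). The calls of these 3 genes, and those of *Bcl2l14* and *Ddit3*, were lost in 7 to 9 of the 14 alternative settings.

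Of 10 regulators of BCL2 family proteins, 3 were called higher and 0 lower at Day 2, and 4 higher and 1 lower at Day 4, beside the 19.8% and 45.1% of all genes called on these days. Their medians were 0.08 and 0.01 on the log2 scale, beside -0.03 and 0.01 over all genes tested. *Pim1*, a kinase gene induced by LIF signalling whose product phosphorylates BAD, was higher at Day 4 (log2 fold change 0.55, SE 0.04, adjusted p = 5.86e-51 by DESeq2) and at Day 2 had a value of 0.10 (SE 0.05, adjusted p = 0.173). *Ddit3* (CHOP), a stress transcription factor, was higher at Day 4 (0.40, SE 0.15, adjusted p = 0.0246), and so was *Vdac2* (0.11, SE 0.03, adjusted p = 0.00281), an outer membrane channel that holds BAK. The 14-3-3 gene *Ywhaz* was lower at Day 4 (-0.23, SE 0.03, adjusted p = 1.72e-11).

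Of 3 listed genes that act on the turnover of MCL1, *Huwe1* and *Usp9x* were called at Day 2 and *Fbxw7*, a subunit of another ubiquitin ligase, had a value of -0.08 (SE 0.06, adjusted p = 0.416 by DESeq2). *Huwe1*, whose ubiquitin ligase marks MCL1 for degradation, was higher (0.48, SE 0.06, adjusted p = 2.52e-12 by DESeq2) and had a Day 4 value of -0.15 (SE 0.10, adjusted p = 0.224). Without the Day 4 EtOH replicate 1 that value was -0.24 (adjusted p = 3e-12), and 4 of 14 alternative settings gained the call. *Usp9x*, which removes ubiquitin from MCL1, was higher at Day 2 (0.13, SE 0.03, adjusted p = 0.00274) and at Day 4 (0.16, SE 0.03, adjusted p = 2.6e-05), and its Day 2 value was -0.02 once the trend on gene length was removed. *Trp53*, which encodes p53, was higher at Day 2 (0.32, SE 0.05, adjusted p = 2.83e-07) and had a Day 4 value of -0.17 (SE 0.10, adjusted p = 0.23). Without the Day 4 OHT replicate 3 the latter was -0.26 (adjusted p = 1.23e-06), and 2 of 14 settings gained the call.

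**Figure D4:**
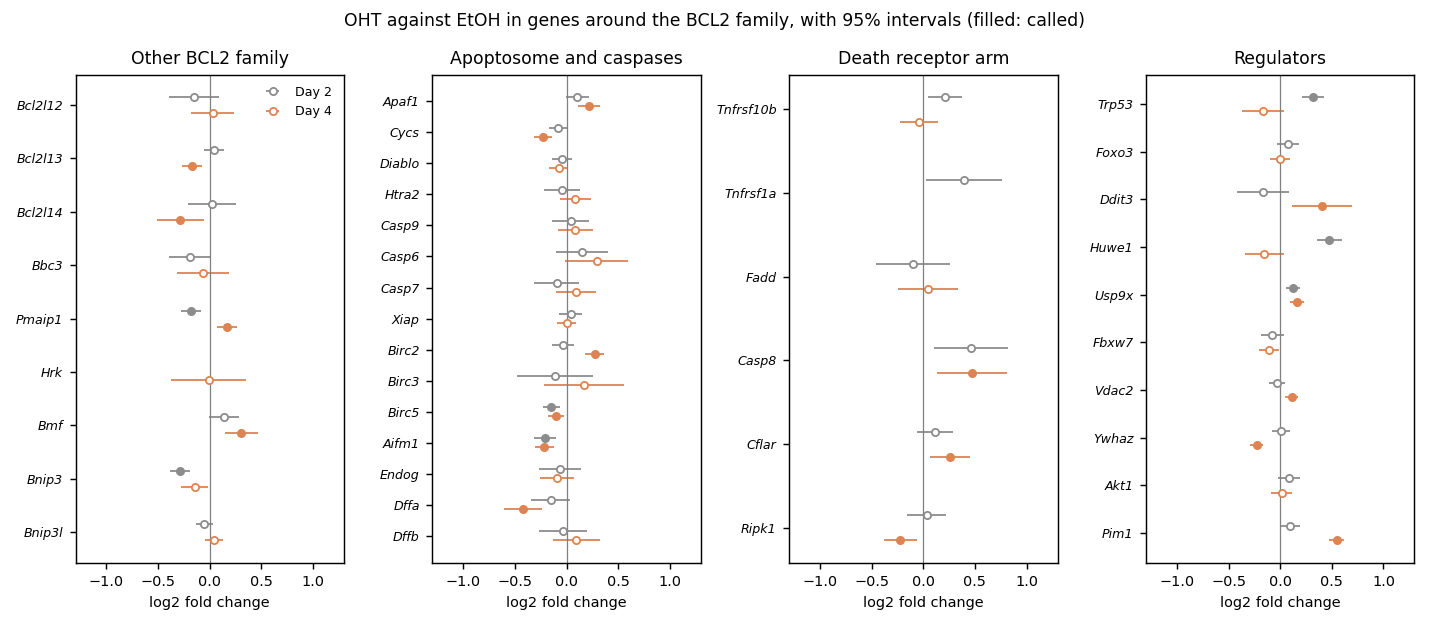
Log2 fold change of OHT against EtOH for the listed genes around the BCL2 family that passed the minimum mean, grey for Day 2 and orange for Day 4, with 95% intervals and filled symbols where called. The called values furthest from 0 are those of *Pim1* (0.55), *Casp8* (0.47) and *Dffa* (-0.42) at Day 4, and that of *Huwe1* (0.48) at Day 2.

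The genes most like the 2 members with the largest called changes between labels at Day 4 were looked up among 10893 protein-coding genes, by Pearson's r of log2 normalised counts over the 12 libraries, which share groups and are given as a description. For *Bok* they were *Fdps* (0.977), *Trim46* (0.977) and *Cmtm4* (0.976). For *Bak1* they were *Zfp334* (0.972), *Tubb3* (0.963) and *Tdg* (0.962).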

How the data were processed

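RNA of 12 mESC samples was sequenced in stranded, rRNA-depleted libraries, each assigned to its group by its title. The authors aligned reads with STAR (version 2.6.0c) to GRCm38.p6 and ran RSEM on GENCODE vM18, which gave the deposited expected counts and TPM and, per gene, an effective length and a posterior SD (deposited as scores). The authors' per-day tables hold log2 fold changes and p-values from DESeq2 (version 1.22.2), of which only the gene symbols were used. Coordinates are those of GENCODE vM21 on GRCm38.

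Rounded expected counts entered DESeq2 (version 1.42.0 under R 4.3.3), the tool of the study, with Wald tests, median-of-ratios factors and unshrunken fold changes. Each comparison used its 6 libraries, and the interaction all 12. Adjustment was by Benjamini-Hochberg over all genes with independent filtering at 0.1. A gene was called at an adjusted p below 0.05 with a mean normalised count above 100. Printed normalised counts come from size factors over the 12 libraries. The main DESeq2 fits and those of edgeR were tested on simulated counts, with changes larger than those of the called members. That test does not show how well small changes are found, and the other alternative settings were not simulated. Among the members, counting error weighs most on *Bcl2* (19 to 73 expected counts per library) and next on *Bad* (183 to 274). Without molecular identifiers, amplified read pairs may repeat a molecule.

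The members and lists were chosen with earlier results of these data known. All 10 members are named. From each list of other pathway genes, up to 5 called genes with the largest absolute log2 fold change at Day 4 and up to 3 at Day 2 are named. One listed gene is not reported here. Alternatives were edgeR (version 4.0.16), scaling by TMM or by total counts, offsets from effective lengths, normalisation that takes out a loess trend on gene length (span 0.3, with 0.5 added) with or without a replicate block, the block alone, a single fit of the 12 libraries, omission of the minimum mean, adjustment restricted to genes above it, and omission of each library.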

Additional observations from a re-analysis of the deposited data

Results flagged for a closer look

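Results are given here where the OHT effect differed between Day 4 and Day 2 by the interaction term of DESeq2, as the Day 4 minus the Day 2 log2 fold change. Among the BCL2 family genes these were *Bax* (0.24), *Bak1* (-0.25) and *Bcl2l11* (-0.40). Among the other family genes they were *Bcl2l13* (-0.21) and *Pmaip1* (0.35), the latter called in opposite directions on the 2 days. In the list of the apoptosome, caspases and their inhibitors it was *Birc2* (0.31). Among the regulators they were *Pim1* (0.46), *Ddit3* (0.57), *Ywhaz* (-0.23), *Vdac2* (0.14), *Huwe1* (-0.63) and *Trp53* (-0.48). In the death receptor list it was *Tnfrsf1a* (-0.99), a receptor gene for TNF, which is named after its values were seen and has a mean close to the minimum count. *Prdm10* itself also differed (-0.23), a call that was lost in 10 of 19 alternative settings. The calls of *Bak1* were lost in 5 of 19, those of *Bcl2l13* in 3 and *Ddit3* in 2, and those of *Bax*, *Vdac2* and *Tnfrsf1a* in 1 each. Groups of 3 libraries are too small to single out a library that stands apart.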

How the results depend on the processing

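Of the values recomputed for single genes, 1309 kept their direction and their side of the threshold, 101 lost the call, 24 gained one and 27 turned. All that turned were small values that had not been called, except *Usp9x* at Day 2, and the cause was not tested. The 3 lower members of Day 4 and the absence of lower members at Day 2 held under every setting.

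Among the BCL2 family genes at Day 2, the count of higher calls went from 0 to 1 with effective length offsets (*Bcl2l11*) and to 1 without the minimum mean (*Bcl2*). At Day 4, leaving out single libraries gave 1 to 2 higher members. Between the days in EtOH it gave 1 to 3 lower members, and in the interaction 1 to 3 lower members. In the interaction, the lower members went from 2 to 1 under the replicate block (*Bak1* lost, adjusted p = 0.122 by DESeq2) and to 1 under the block with the length trend removed, where the higher members went from 1 to 0 (*Bax*, adjusted p = 0.0794). *Bcl2* at Day 2 got no adjusted p from DESeq2 in 2 settings.

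Same-numbered libraries did not pair (correlations of deviations from -0.035 to 0.084 at Day 2 and -0.23 to 0.12 at Day 4), so the block is no test of a shared culture. Over all genes it lowered the Day 2 calls from 1068 higher and 1238 lower to 658 and 659. Leaving out the Day 2 EtOH replicate 1 left 615 and 586 and leaving out the EtOH replicate 2 left 697 and 710. Scaling by total counts moved the share of higher calls at Day 2 from 46.3% to 68.5%, and in the interaction from 58.0% to 44.2%. No setting other than those named changed the members' counts by over 1.5 times.

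Log2 values that turned at Day 2 with total counts were *Bak1* 0.005, *Birc2* 0.0022 and *Vdac2* 0.0061. With effective length offsets they were *Bak1* 0.10, *Bad* -0.018 and *Ripk1* -0.023 at Day 2, *Bcl2l1* -0.011 at Day 4, *Bak1* 0.0028 between the days in EtOH and *Bcl2l2* -0.0057 in the interaction. With the length trend removed they were *Bak1* 0.0057, *Usp9x* -0.017 and *Vdac2* 0.015, and with the replicate block as well 0.0063, -0.017 and 0.015.

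Without single libraries, the Day 2 values ranged from -0.060 to 0.0083 for *Bak1*, from -0.058 to 0.081 for *Bad*, from -0.021 to 0.025 for *Bid*, from -0.036 to 0.073 for *Bcl2l14* and from -0.027 to 0.046 for *Ywhaz*. *Bcl2l1* at Day 4 ranged from -0.040 to 0.063, *Bak1* between the days in EtOH from -0.055 to 0.015, and *Bad* in the interaction from -0.13 to 0.0098.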
